A study of Homo sapiens with 3 samples.

Results

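The mRNA profiles of the adenocarcinoma lines A549 and HCC827 were each set against that of BEAS-2B, and the genes that differed in the same direction in both cancer lines were described, with the genes of opposite direction kept apart. BEAS-2B, labelled as a normal lung cell line, comes from bronchial epithelium that was immortalized. A549 and HCC827 were both derived from lung adenocarcinomas, A549 having wild-type EGFR, the epidermal growth factor receptor, and HCC827 an activating mutation of it. No treatment is named for any of the 3 lines, and total RNA depleted of ribosomal RNA was sequenced as 1 library per line. Each group is therefore 1 line and 1 library, differences have no replicate error beside them, and none was tested. Both comparisons use the same BEAS-2B library, so that any error in that library enters both.

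Levels are FPKM (fragments per kilobase, normalized by the authors to library size), and a difference is log2(FPKM + 1) of a cancer line minus that of BEAS-2B, a scale that understates the difference of genes with low values. When both differences of a gene had the same sign, the one nearer to 0 was taken as its shared difference. Nearly all low FPKM stood at exactly 1, which is called the floor here. How the floor arose is not given in the sources used here, and it also held genes in constant use, among them 6 of 86 cytosolic ribosomal protein genes in each of BEAS-2B and A549 and 5 in HCC827. A gene at the floor is thus only listed there, and its difference is a difference to the floor.

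Of 20494 gene names used, 6698 stood at the floor in all 3 lines and 13796 were above it in at least 1 line and were compared. The same sign in both cancer lines was found for 8637 of these (62.6%), of which 2989 were higher and 5648 lower than in BEAS-2B. Opposite signs were found for 1721 genes that were higher in A549 and lower in HCC827 and for 1942 genes with the reverse order. The other 1496 genes had no sign in 1 cancer line, 840 because only HCC827 was above the floor and 656 because only A549 was. Over the 9446 genes above the floor in all 3 lines the median difference was -0.21 in A549 and -0.19 in HCC827. With that shift removed by scaling the lines to a median ratio of 1, 3894 genes were higher and 4418 lower in both, so the excess of lower genes was smaller after scaling.

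At 4-fold in both lines, 114 genes were higher, 0.826% of the genes compared, and 164 were lower, 1.19%. After scaling the counts were 136 higher and 126 lower, so that higher genes made up 41.0% of the called genes as deposited and 51.9% after scaling. All 114 higher genes and 126 of the 164 lower genes were called under both. At 2-fold, the level used for gene lists, 528 genes (3.83%) were higher and 984 (7.13%) lower, against 685 and 667 after scaling. Either cancer line alone differed from BEAS-2B at 4-fold in many more genes, with 376 higher and 374 lower in A549 and 493 higher and 452 lower in HCC827. Just inside the 4-fold limit lay CTU2 at 2.02 and HMMR at -2.002, and just outside lay APOC1 at 1.99 and POM121C at -1.99, so membership near the limit rests on small differences. Since bulk RNA was measured, fewer cells that express a gene and less of its RNA per cell cannot be told apart for any of the values below.

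**Figure D1:**
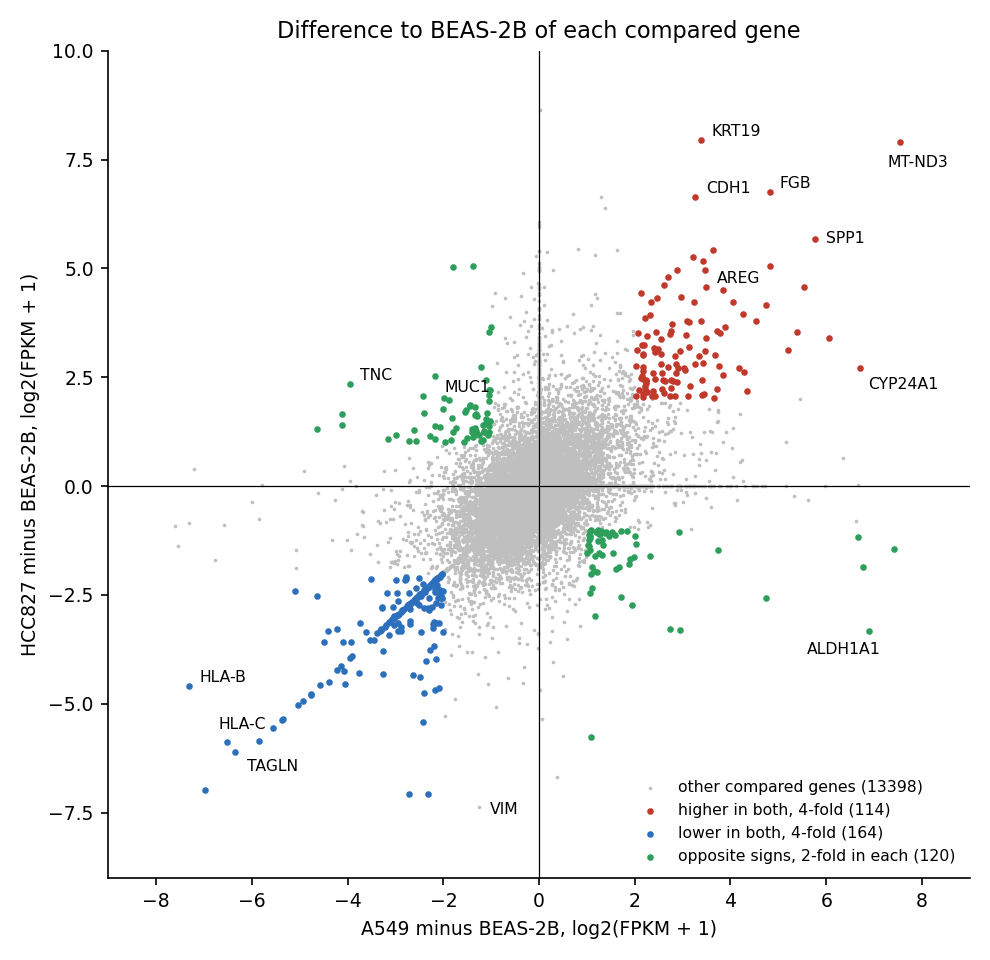
Difference to BEAS-2B in A549 (x axis) and in HCC827 (y axis) of each of the 13796 genes compared, on the log2(FPKM + 1) scale. Each point is a gene; the 114 genes higher in both (red), the 164 lower in both (blue) and the 120 with opposite signs (green) are coloured, and blue points on the diagonal are mostly genes at the floor in both cancer lines.

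The plot of both differences shows how evenly each group was shared. Among the 114 higher genes the cancer lines lay within 2-fold of each other for 77, HCC827 was the higher by 2-fold or more for 23 and A549 for 14. Of these genes, 70 stood at the floor in BEAS-2B and 44 were above it in all 3 lines. Among the 164 lower genes 74 stood at the floor in both cancer lines and 51 in 1 of them, which leaves 39 above it in all 3 lines. For the 74, both differences measure only the BEAS-2B level, so their agreement between the cancer lines follows from the floor.

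The epithelium of the airway is held together by cadherin junctions and desmosomes and secretes mucins, whereas mesenchymal cells express vimentin, N-cadherin and fibrillar collagens and contract on their matrix. Cultured epithelial lines vary along this axis. Growth of some lung adenocarcinomas depends on EGFR, and loss of HLA class I lowers the display of peptides to T cells.

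Regulatory sequence is shown for genes that carry 2 of the shared patterns described below, the fibrinogen chains FGB and FGA and the EGFR ligands. These are RefSeq sequences of the strand of the gene on GRCh38.p14, from 250 bases before to 50 bases after the annotated start, written 5′ to 3′, and positions are counted from the start, with negative numbers before it. In the fibrinogen promoters capitals mark the match to the HNF1 box, searched on both strands as GTTAAT, any base, ATTAAC with at most 2 mismatches, a motif added after the values had been seen. The promoter of FGB (fibrinogen beta chain, chr4:154562730-154563029, plus strand) holds it from base -58 and that of FGA (fibrinogen alpha chain, chr4:154590693-154590992, minus strand) from base -59. The window of the gamma chain gene FGG, which was also higher in both cancer lines, held no match to this box and is not shown.
FGB: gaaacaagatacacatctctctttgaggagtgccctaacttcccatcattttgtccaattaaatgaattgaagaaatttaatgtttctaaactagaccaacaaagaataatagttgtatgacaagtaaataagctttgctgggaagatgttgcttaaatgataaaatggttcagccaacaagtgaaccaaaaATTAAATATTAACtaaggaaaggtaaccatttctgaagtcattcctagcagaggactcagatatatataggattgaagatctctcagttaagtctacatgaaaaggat
FGA: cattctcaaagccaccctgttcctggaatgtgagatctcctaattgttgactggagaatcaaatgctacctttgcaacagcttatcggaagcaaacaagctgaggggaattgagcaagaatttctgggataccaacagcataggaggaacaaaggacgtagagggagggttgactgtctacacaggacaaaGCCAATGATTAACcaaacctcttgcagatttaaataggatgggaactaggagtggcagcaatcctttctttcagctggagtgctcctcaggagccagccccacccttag

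In the promoters of the EGFR ligands capitals mark CACCTG, the E-box read by repressors and activators of epithelial genes, and TATAAA, the TATA box, each searched on both strands. AREG (amphiregulin, chr4:74444886-74445185, plus strand) and EREG (epiregulin, chr4:74364895-74365194, plus strand) were higher in both cancer lines, and HBEGF (heparin-binding EGF-like growth factor, chr5:140346554-140346853, minus strand) was lower in both. The AREG sequence holds the E-box at bases -19 and 11 and the TATA box at base -29, the EREG sequence at bases -155 and -32, and the HBEGF sequence holds an E-box at base -248 and no TATA box in this window.
AREG: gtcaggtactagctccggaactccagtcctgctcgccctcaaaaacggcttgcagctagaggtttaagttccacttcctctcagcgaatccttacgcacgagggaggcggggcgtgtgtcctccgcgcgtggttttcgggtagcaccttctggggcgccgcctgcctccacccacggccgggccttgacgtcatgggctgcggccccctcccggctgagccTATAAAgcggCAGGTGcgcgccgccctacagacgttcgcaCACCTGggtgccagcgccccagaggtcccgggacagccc
EREG: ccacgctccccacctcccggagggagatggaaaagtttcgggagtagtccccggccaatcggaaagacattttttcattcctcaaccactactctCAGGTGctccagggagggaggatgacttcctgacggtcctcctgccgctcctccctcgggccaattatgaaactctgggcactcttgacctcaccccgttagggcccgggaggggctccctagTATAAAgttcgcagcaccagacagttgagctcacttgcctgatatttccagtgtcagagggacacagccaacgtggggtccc
HBEGF: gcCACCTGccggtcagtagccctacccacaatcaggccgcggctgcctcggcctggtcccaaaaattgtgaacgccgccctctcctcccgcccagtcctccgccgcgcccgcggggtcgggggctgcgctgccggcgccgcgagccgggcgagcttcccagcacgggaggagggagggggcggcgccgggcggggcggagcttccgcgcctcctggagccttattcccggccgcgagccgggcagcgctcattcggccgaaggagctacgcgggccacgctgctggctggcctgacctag

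Promoter windows were at hand for 81 of the 114 higher genes, 117 of the 164 lower genes and 10093 of all genes compared. CACCTG was found in 27.2% of the windows of higher genes, 11.97% of those of lower genes and 18.4% of all. TATAAA was found in 16.05%, 7.69% and 6.11%, respectively. The HNF1 box was found in the windows of 4 higher genes (4.94%), FGB, FGA, HAVCR1 and MEST, and of 1 lower gene (0.855%), against 0.773% of all. TGANTCA, the AP-1 site, was found in 7.41%, 6.84% and 4.67%, and TGACNNNGC, the core of the antioxidant response element, in 7.41%, 11.1% and 14.98%. GGGCGG, the GC box, stood in 58.0%, 67.5% and 68.4%, and the CArG box, also added after the values had been seen, in 0, 3 and 102 windows. These shares describe letters in a fixed window and say nothing of binding.

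The genes that were highest in both cancer lines included SPP1 and the genes of a pair of prostaglandin enzymes, HPGD and PTGS2. SPP1, which encodes the secreted phosphoprotein osteopontin, was listed at 2.19 FPKM in BEAS-2B and at 173 and 162 FPKM in A549 and HCC827, a shared difference of 5.68. HPGD, which encodes the enzyme that breaks down prostaglandins, stood at the floor in BEAS-2B and at 56.1 and 65.9 FPKM in A549 and HCC827. PTGS2, which encodes the inducible cyclooxygenase that starts their synthesis, stood at the floor in BEAS-2B and at 45.5 and 26.8 FPKM in the cancer lines. For both genes the cancer lines lay close together, and both were named by rank and not from a list of such genes.

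MMP7, the protease matrilysin, stood at the floor in BEAS-2B and at 52.4 FPKM in A549 and 34.6 FPKM in HCC827. ABCC3, an export pump for conjugated bile acids and drugs, was listed at 1.76, 52.2 and 41.9 FPKM in BEAS-2B, A549 and HCC827. SPINT2, a Kunitz-type inhibitor of membrane serine proteases, was listed at 4.55, 71.7 and 64.8 FPKM. For each of these 3 genes the cancer lines lay close together and well above BEAS-2B. KYNU, an enzyme of tryptophan breakdown, was listed at 1.37, 98.4 and 26.6 FPKM. The genes with the highest shared differences also included MALL, a membrane proteolipid of the MAL family, SDC1, the proteoglycan syndecan-1, HAVCR1, STEAP1 and FGB, all at the floor in BEAS-2B, and 2 mitochondrial genes.

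The mitochondrial genome encodes 13 proteins of the respiratory chain, and all 13 mRNAs were higher in both cancer lines, by 0.88 (MT-ND2) to 7.53 (MT-ND3). MT-ND3, a subunit of complex I, was listed at 5.18 FPKM in BEAS-2B and at 1144 and 1484 FPKM in A549 and HCC827. MT-CYB, of complex III, was listed at 164, 2750 and 3082 FPKM, and MT-CO1, of complex IV, at 8148, 17036 and 17532 FPKM. MT-ND3 stood far apart from the other mitochondrial genes in BEAS-2B, where the next lowest was MT-CYB. Of 17 nuclear genes of the respiratory chain 0 were higher at 2-fold in both lines and 1 was lower, SDHA at 93.5, 38.6 and 33.3 FPKM, and their median differences were 0.14 and -0.50, or 0.14 and -0.03 over the 13 of them above the floor in all 3 lines. Mitochondrial and nuclear genes of the chain therefore did not follow one pattern.

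**Figure D2:**
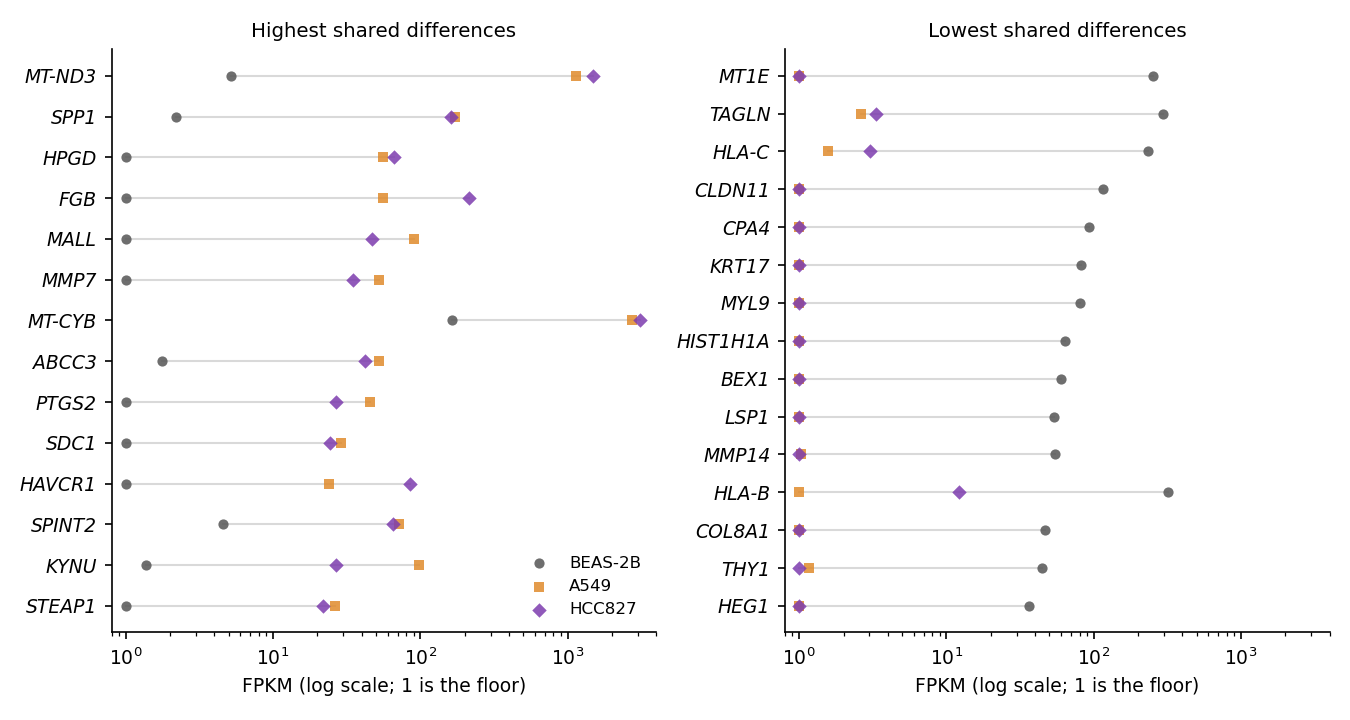
FPKM on a log scale of genes with the highest (14 genes, left) and the lowest (15 genes, right) shared differences, with 1 symbol per line for the single library of BEAS-2B, A549 and HCC827. In the left panel both cancer lines lie to the right of BEAS-2B for every gene, and in the right panel most genes lie at the floor in both cancer lines.

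Of 26 genes of junctions and polarity compared, 5 were higher at 2-fold in both lines and 0 lower, with a median difference of 0.10 in A549 and 2.17 in HCC827 against -0.09 and -0.08 over all genes compared. Over the 11 of them above the floor in all 3 lines the medians were 0.84 and 1.23, so the gap between the cancer lines was smaller among these. CDH1, which encodes E-cadherin, stood at the floor in BEAS-2B and at 18.2 and 198 FPKM in A549 and HCC827. EPCAM, an epithelial adhesion molecule, stood at the floor, 4.23 and 166 FPKM in the same order. JUP (5.19, 32.3 and 25.1 FPKM), the junction protein plakoglobin, was nearly level in the cancer lines, whereas CLDN4 and CLDN7, claudins of tight junctions, stood at the floor in both BEAS-2B and A549 and at 63.3 and 83.5 FPKM in HCC827. After scaling 8 of the 26 genes were higher.

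Keratins also separated the lines. KRT19, a keratin of simple epithelia, was listed at 1.84 FPKM in BEAS-2B and at 28.7 and 697 FPKM in A549 and HCC827, among the genes higher at 4-fold the one on which the cancer lines were farthest apart. KRT17, a keratin of basal cells, was listed at 82.1 FPKM in BEAS-2B and at the floor in both cancer lines. KRT8 went in opposite directions, at 282, 1419 and 91.6 FPKM, and KRT7 was lower in both, at 74.4, 17.5 and 26.3 FPKM. KRT18 was higher in both, with a shared difference of 1.35. Of 6 keratins of simple epithelia compared, 2 were higher, 1 lower and 1 of opposite sign. Of 7 basal and squamous markers compared, 0 were higher and 1 was lower, with median differences of 0.11 and 0.59. No keratin pattern was thus common to the whole family. Of 13 epithelial regulators and splicing factors 3 were higher, ELF3, EHF and KLF4, while ESRP1 was above the floor only in HCC827.

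Mucins and secretory products were the list with the largest share of higher genes among those with at least 8 genes compared. Of 14 compared, 7 were higher, 0 lower and 2 of opposite sign, with median differences of 1.23 and 1.55, or 0.67 and 2.12 over the 4 above the floor in all 3 lines. AGR2, a disulfide isomerase needed for mucin folding, stood at the floor in BEAS-2B and at 132 FPKM in A549 and 20.3 FPKM in HCC827. MUC5B, a gel-forming airway mucin, stood at the floor, 11.2 and 48.0 FPKM, and LCN2, the siderophore-binding lipocalin, at 5.96, 16.05 and 690 FPKM. The others were MUC13, SPDEF, CEACAM1 and CEACAM6, so the group held membrane and gel-forming mucins and a transcription factor of secretory cells. The surfactant genes SFTPB, SFTPC, SFTPA1 and SFTPD and the club cell gene SCGB1A1 were listed at the floor in all 3 lines, and NKX2-1, the lineage factor of lung epithelium, and NAPSA, an aspartic protease of type II cells, exceeded 2 FPKM in HCC827 only. For A549, labelled as lung adenocarcinoma, the listed level of these lung markers thus gave no check of the label. Of 3 leukocyte, 2 endothelial, 5 neuroendocrine and 5 cancer-testis genes compared, 0 were called in either direction.

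All 3 fibrinogen chains were higher in both cancer lines. FGB stood at the floor in BEAS-2B and at 55.3 and 215 FPKM in A549 and HCC827. FGG, the gamma chain, stood at the floor, 19.9 and 26.6 FPKM, and FGA at the floor, 39.8 and 8.05 FPKM. Of the 16 genes of plasma proteins and complement compared, 4 were higher, C3 and C4A were lower, and SERPINA1 and CFB had opposite signs. The 3 chains of this secreted clotting protein were thus all at the floor in BEAS-2B and above it in both cancer lines, with HCC827 the higher for FGB and A549 for FGA.

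Of 11 ERBB receptors and ligands compared, the ligand genes AREG and EREG were higher and HBEGF was lower in both lines. AREG stood at the floor in BEAS-2B and at 21.5 and 46.3 FPKM in A549 and HCC827, and EREG at the floor, 20.4 and 70.5 FPKM. HBEGF was listed at 9.07 FPKM in BEAS-2B and at the floor in both cancer lines. The receptor genes showed no shared difference at 2-fold, since EGFR was listed at 34.6, 27.0 and 1058 FPKM, ERBB2 at 4.53, 6.33 and 23.5 FPKM and ERBB3 at 8.54, 12.1 and 56.1 FPKM. AREG and EREG were thus higher in a line with mutated EGFR and in a line with wild-type EGFR, and HBEGF was lower in both. The receptor genes EGFR, ERBB2 and ERBB3 were higher at 2-fold in HCC827 only.

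Of 20 targets of the MAP kinase pathway compared, 3 were higher (15%), 0 lower and 2 of opposite sign. Over all genes compared 3.83% were higher. After scaling 4 of the 20 were higher and 1 was of opposite sign. CCND1, which encodes cyclin D1, was listed at 8.06, 60.6 and 42.0 FPKM in BEAS-2B, A549 and HCC827. DUSP6, a phosphatase that inactivates ERK, was listed at 2.14, 6.31 and 12.4 FPKM, and ETV4, an ETS factor, at the floor, 16.8 and 3.71 FPKM. EGR1 and PHLDA1 were lower in A549 and higher in HCC827. MET, the receptor of hepatocyte growth factor, was listed at 25.4, 57.9 and 223 FPKM, whereas AXL, another receptor tyrosine kinase, was lower at 50.2, 10.3 FPKM and the floor.

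Genes of secreted signals and of transport completed the higher side. WNT7B, a Wnt ligand, was listed at 2.11, 28.8 and 20.6 FPKM, and JAG1, a Notch ligand, at 1.03, 13.6 and 7.47 FPKM. ID1 and ID2, inhibitors of basic helix-loop-helix factors and targets of BMP signals, were higher with shared differences of 1.65 and 2.44, and GREM1 and NOG, secreted BMP antagonists, were lower with -2.74 and -2.13. They were among 23 genes of TGF-beta and BMP signalling compared, of which 2 were higher and 4 lower, the other lower ones being TGFB2 and INHBA. ABCC2, a second conjugate export pump, stood at the floor, 72.2 and 16.4 FPKM. It was 1 of 4 higher genes among 20 targets of the redox factor NRF2, with ABCC3, OSGIN1 and GSR. Of the 20 targets, 1 was lower and 1 of opposite sign. Higher genes made up 20% of this list, against 3.83% over all genes compared. Its median differences were 2.001 in A549 and 0.15 in HCC827, so the list as a whole was raised mainly in A549. NQO1, a defining target of NRF2, was listed at 40.8, 435 and 69.6 FPKM and was therefore higher in A549 alone at 2-fold. Of 16 HOX genes compared, HOXA3, HOXB5, HOXB6 and HOXB9 were higher and HOXC8 lower, and ASNS, which makes asparagine, stood at the floor, 19.4 and 14.9 FPKM.

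Lower in both cancer lines were contractile, matrix and antigen presentation genes. Of 11 mesenchymal and fibroblast markers compared, 7 were lower and 0 higher, with median differences of -2.17 in A549 and -2.19 in HCC827. Over the 4 of them above the floor in all 3 lines, of which 2 were lower, the medians were -1.18 and -1.15. THY1, a surface protein of fibroblasts, was listed at 44.5 FPKM in BEAS-2B, with 1.16 FPKM and the floor in A549 and HCC827. CDH2, which encodes N-cadherin, was listed at 31.3, 5.29 FPKM and the floor, and VIM, which encodes vimentin, at 411, 173 and 1.47 FPKM. VIM was thus moderately lower in A549, whereas in HCC827 it came close to the floor. PDGFRB, FBN1, MMP2 and SPARC were the other lower genes, and of 7 EMT factors ZEB2 (8.94 FPKM in BEAS-2B and the floor in both cancer lines) and TWIST1 were lower. The median differences of the 7 factors were -0.40 and -0.92. Over the 2 of them above the floor in all 3 lines, 0 were lower and the medians were 0.13 and 0.06.

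Of 17 genes of the contractile cytoskeleton 5 were lower and 0 higher. TAGLN, which encodes the actin-binding protein transgelin, was listed at 297 FPKM in BEAS-2B and at 2.61 and 3.31 FPKM in A549 and HCC827, a shared difference of -6.11. MYL9, a regulatory light chain of myosin, was listed at 80.5 FPKM and at the floor in both cancer lines. TPM1, a tropomyosin, was listed at 184, 30.4 and 27.8 FPKM, and with TPM2 and CALD1 these genes form a set that acts on actin filaments. Of 13 genes of the YAP and SRF target list, 6 were lower, among them FSTL1 at 165, 7.85 and 16.03 FPKM, and F3 had opposite signs.

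Matrix genes were lower across several classes. Of 12 collagen chains compared 6 were lower, 0 higher and 1 of opposite sign, with median differences of -1.08 and -2.33, or -1.97 and -2.56 over the 4 above the floor in all 3 lines. COL1A1, a chain of type I collagen, was listed at 60.6 FPKM in BEAS-2B and at 5.21 and 5.32 FPKM in A549 and HCC827, and COL8A1 at 46.7 FPKM and the floor in both cancer lines. COL4A1 and COL4A2, of basement membranes, were lower with shared differences of -1.82 and -1.83. Of 19 other matrix proteins 11 were lower and VCAN and MFAP5 higher, and LOX, which crosslinks collagen, was listed at 41.9 FPKM, the floor and 3.29 FPKM. The membrane protease MMP14 was listed at 54.5, 1.04 FPKM and the floor, so that proteases were split between MMP14, MMP2, ADAM12 and PLAT on the lower side and MMP7 and MMP24 on the higher side. The laminin genes LAMA5 and LAMB1 were higher instead, with LAMA5 at the floor in BEAS-2B and 21.5 and 20.3 FPKM in the cancer lines and LAMB1 at 18.4, 47.0 and 46.8 FPKM.

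Antigen presentation by HLA class I was the list with 9 lower genes of 15 compared, 0 higher, and median differences of -2.36 and -1.54, or -1.76 and -0.92 over the 12 above the floor in all 3 lines, of which 6 were lower. HLA-C, a class I heavy chain, was listed at 234 FPKM in BEAS-2B and at 1.56 and 3.01 FPKM in A549 and HCC827. HLA-B was listed at 317 FPKM, the floor and 12.2 FPKM. B2M, the light chain that every class I molecule needs, was listed at 655, 120 and 205 FPKM. Both heavy chain genes were thus close to the floor in A549, and HLA-B kept the higher level in HCC827. NLRC5, the activator of class I transcription, was listed at 12.9, 1.62 FPKM and the floor, and PSMB9, a subunit of the immunoproteasome, at 73.7, 10.5 and 9.58 FPKM. PSMB8 (27.1, 4.48 and 26.7 FPKM) and TAP2 (11.3, 4.67 and 18.3 FPKM) were lower in A549 only. After scaling 8 of the 15 were lower at 2-fold.

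Along chromosome 6, the 101 compared genes from HLA-F to TAPBP in the gene order of RefSeq held 20 lower genes (19.8%) and 3 higher ones, against 11.4% lower over the other 527 genes of chromosome 6 and 7.26% over the 12253 genes placed on a chromosome. Without the HLA genes the count was 14 of 89 (15.7%), among them BAG6, RING1, TCF19 and CCHCR1. The 3 higher genes were MSH5 and the class II genes HLA-DMA and HLA-DMB, which load peptides on class II molecules. Whole chromosomes differed as well, with 14.98% of the genes of chromosome 13 and 13.7% of those of chromosome 5 and 12.7% of those of chromosome 6 lower at 2-fold in both lines and 7.55% of those of chromosome 7 higher. On chromosome 2, higher genes (6.601%) outnumbered lower ones (2.93%). All these shares rest on the values as deposited. Over all genes compared, scaling changed the 2-fold counts from 528 higher and 984 lower to 685 and 667.

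Short runs of neighbouring genes lay on the same side of BEAS-2B. Among 10 neighbours on chromosome 12, SLCO1B3, LDHB, CMAS, C2CD5 and ETNK1 were higher in both lines, with LDHB, a lactate dehydrogenase subunit, at 104, 275 and 258 FPKM. On chromosome 1 PTGS2, PLA2G4A and RGS2 were higher within 10 neighbours. On chromosome 1 STMN1, CNKSR1, SH3BGRL3, DHDDS, HMGN2 and RPS6KA1 were lower within 10 neighbours. On chromosome 5 the runs of lower genes also held 6 of 10 genes, once FAM13B, BRD8, KIF20A, CDC25C, FAM53C and REEP2 and once CCNG1, HMMR, MAT2B, PANK3, SPDL1 and RANBP17. KIF20A, a kinesin of cytokinesis, was listed at 170, 35.9 and 18.1 FPKM, and CDC25C, the phosphatase that starts mitosis, at 28.4, 8.45 and 7.05 FPKM. These runs were picked for their counts, and their calls also rest on the values as deposited. Of all windows of 10 neighbours, which overlap, 143 held 4 lower genes, 33 held 5 and 6 held 6, while 30 held 4 higher genes and 1 held 5.

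Of 26 interferon stimulated genes 5 were lower, 1 higher and 2 of opposite sign, and IFITM3, which blocks virus entry, was listed at 346, 9.16 and 63.8 FPKM. Of 20 chemokines and cytokines 5 were lower, IL8, CCL2, IL1B, IL6 and the feedback inhibitor TNFAIP3, whereas CXCL5 (the floor, 20.99 and 16.3 FPKM) and CCL20 (1.49, 16.02 and 32.1 FPKM) were higher. Chemokines were therefore split between the directions. After scaling 3 of the 20 chemokines and cytokines were higher and 3 lower. Of 26 genes of DNA replication and mitosis 2 were lower, CCNA2 and E2F1, a share of 7.69% close to the 7.13% over all genes compared, with median differences of -0.32 and -1.12, and after scaling 1 of 25 was lower. Of 13 genes of the G1 phase 5 were lower, among them CDK2 at 65.9, 20.3 and 14.3 FPKM and RB1 at 38.8, 11.4 and 9.12 FPKM. The tumour suppressor CDKN2A was listed at 114 FPKM in BEAS-2B, the floor in A549 and 67.3 FPKM in HCC827, so its difference was not shared at 2-fold.

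Single genes with large lower values included MT1E, a metallothionein that binds zinc and copper, at 251 FPKM in BEAS-2B and the floor in both cancer lines. CA9, a carbonic anhydrase induced by hypoxia, was listed at 17.3, 1.24 FPKM and the floor, and ALDOA, an enzyme of glycolysis, at 416, 62.8 and 116 FPKM. STMN1, which destabilizes microtubules, was listed at 385, 67.4 and 17.5 FPKM. CLDN11, CPA4, HIST1H1A, BEX1, LSP1 and HEG1 were listed between 36.5 and 115 FPKM in BEAS-2B and at the floor in both cancer lines.

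Further genes lay above the floor in all 3 lines on either side. ASPH, which hydroxylates aspartate in EGF-like domains, was listed at 15.1, 118 and 499 FPKM in BEAS-2B, A549 and HCC827, and MEST, an imprinted gene, at 1.05, 17.0 and 27.0 FPKM. CYP24A1, which inactivates vitamin D, was listed at 1.38, 246 and 14.6 FPKM, so that the cancer lines shared the direction and little of the size. ANXA4, an annexin of secretory epithelia, was listed at 4.79, 75.4 and 26.0 FPKM, whereas ANXA5 (311, 148 and 92.8 FPKM) and ANXA6 (39.6, 5.55 FPKM and the floor) were lower. Of 20 annexins and S100 proteins 1 was higher (5%) and 4 were lower (20%), against 3.83% and 7.13% over all genes compared. The share of higher genes was thus close to that over all genes. After scaling 1 of the 20 was higher and 3 were lower.

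On the lower side, GNAI2, an inhibitory G protein subunit, was listed at 76.6, 12.6 and 10.6 FPKM and NFIX, a nuclear factor I transcription factor, at 23.7, 2.205 and 1.45 FPKM. HMGN2 (598, 131 and 132 FPKM) and HMGB2 (168, 20.4 and 37.1 FPKM), proteins that bind nucleosomes or bend DNA, were also lower, and both were picked after the values had been seen. Among the genes lower at 4-fold the cancer lines were farthest apart on CCL2, a monocyte chemokine, at 270, 53.1 FPKM and the floor, and on LGALS1, the lectin galectin-1, at 269, 39.7 FPKM and the floor. A549 was above HCC827 by 2-fold or more for 17 of the 164 lower genes and below it for 5.

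Adhesion receptors and surface antigens had a larger share of higher genes than all genes compared. Their shares of lower genes lay close to that over all genes. Higher genes made up 14.3% of integrins and laminins and 20% of carcinoma surface antigens, against 3.83% over all genes compared. Lower genes made up 9.52% and 6.67%, against 7.13%. Of 21 integrin and laminin genes 3 were higher and 2 lower, among them ITGA2, a collagen receptor subunit, at 2.24, 10.2 and 28.0 FPKM and ITGB3, the subunit of the vitronectin receptor, at 12.01 FPKM and the floor in both cancer lines. Of 15 carcinoma surface antigens compared, 3 were higher, 1 lower and 2 of opposite sign. MSLN, which encodes the surface antigen mesothelin, was lower at 9.13 FPKM and the floor in both cancer lines. Of 19 Wnt genes FZD5 and LGR4, both receptors, were higher with WNT7B, and WNT5A and DKK3 were lower. Of 19 p53 targets 1 was higher, GDF15, a secreted stress signal, at 1.23, 14.01 and 4.36 FPKM, and 3 were lower. After scaling 2 of the 19 were higher and 0 lower, so the lower calls rest on the values as deposited.

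**Figure D3:**
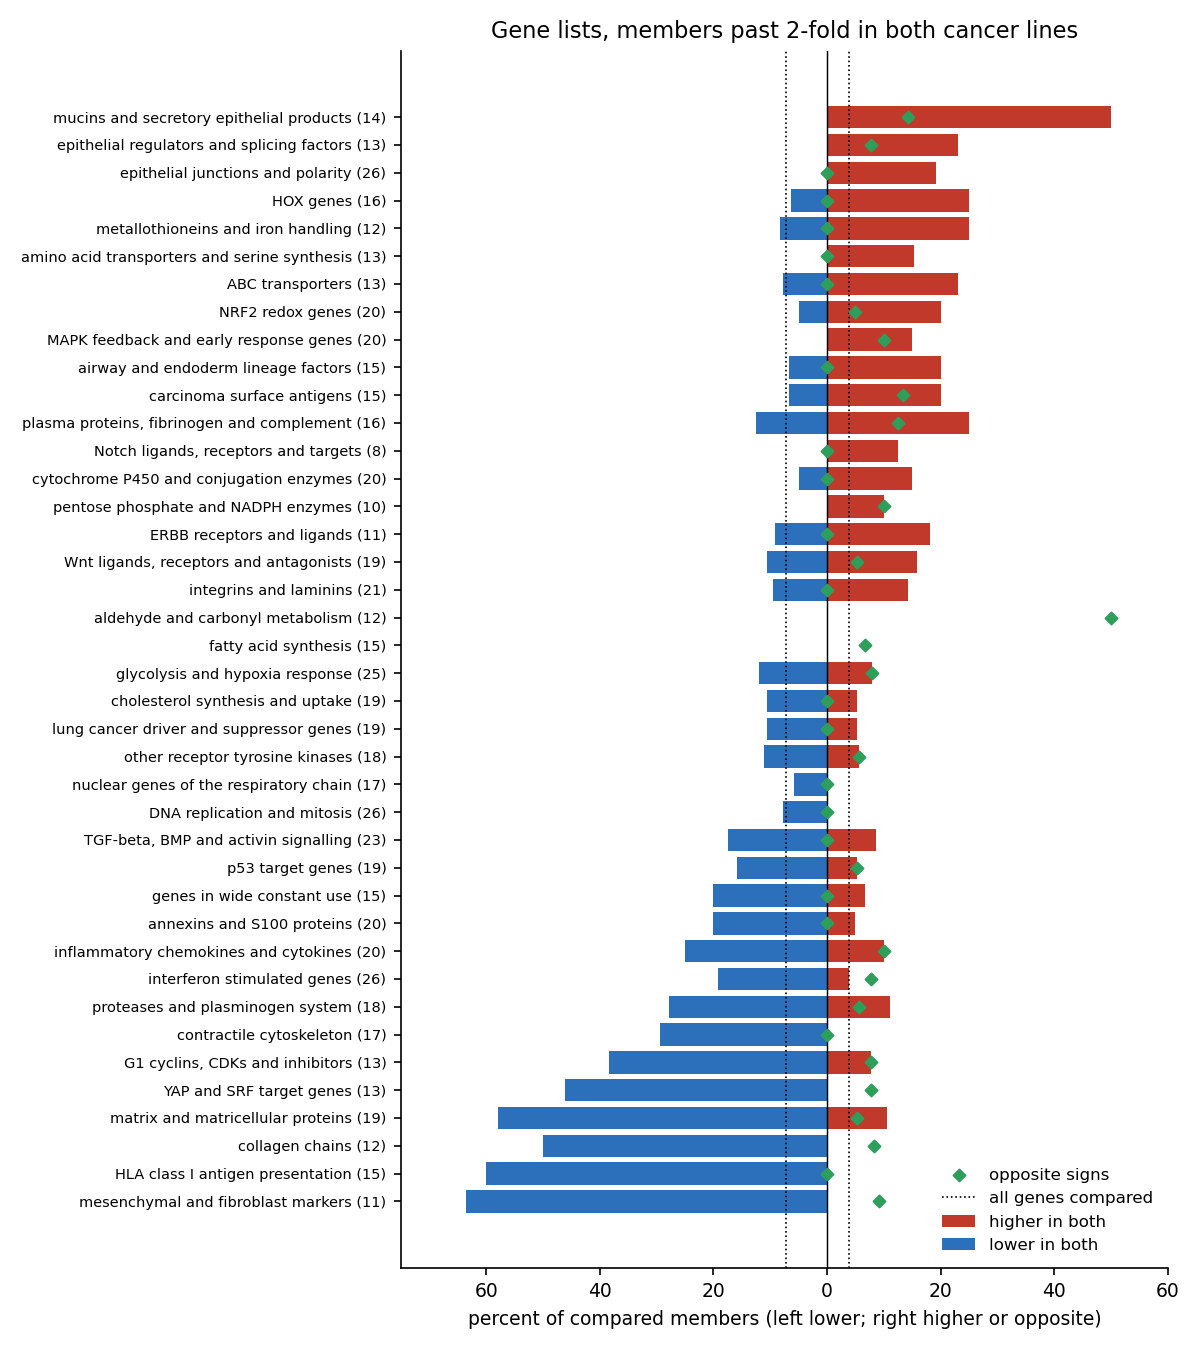
Share of the compared members of each gene list with at least 8 genes compared that were higher (red, right) or lower (blue, left) at 2-fold in both cancer lines, with green diamonds for the share of opposite sign and the number of genes compared in parentheses. Dotted lines give the shares over all 13796 genes compared, 3.83% higher and 7.13% lower; mesenchymal, HLA class I, matrix and collagen lists lie at the lower end and mucins at the higher end.

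The plot of gene lists sets these groups beside the others, whose counts lay between. Metabolic lists were small in both directions, with 2 of 19 lower and 1 higher for cholesterol, 0 of 15 for fatty acid synthesis with 1 of opposite sign, and 2 of 25 higher and 3 lower for glycolysis and hypoxia. Of 15 genes in wide constant use 3 were lower, ACTB, SDHA and B2M, and 1 was higher, TFRC, the transferrin receptor. ACTB, which encodes beta-actin, was listed at 10.7, 4.31 and 4.03 FPKM, a low level in each line for a gene of the cytoskeleton.

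The aldehyde and carbonyl enzymes were the list with the largest share of opposite signs, 6 of 12 compared with 0 shared in either direction. Over all genes compared, 56 (0.406%) were higher in A549 and lower in HCC827 at 2-fold in each line, and 64 (0.464%) had the reverse order. ALDH1A1, which oxidizes retinaldehyde, was listed at 19.2 FPKM in BEAS-2B, with 2397 FPKM and the floor in A549 and HCC827. AKR1C2, a ketosteroid reductase, was listed at 6.20 FPKM, 789 FPKM and the floor, and AKR1B10, which reduces retinal, at 10.7, 1981 and 3.30 FPKM. ALDH1A3, another retinaldehyde dehydrogenase, had the reverse order, at 10.7 FPKM in BEAS-2B and at 4.41 and 62.1 FPKM in A549 and HCC827. The retinaldehyde enzymes ALDH1A1 and ALDH1A3 thus took opposite places in the cancer lines.

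IGFBP4, which binds insulin-like growth factors, was listed at 39.0, 306 and 3.03 FPKM in BEAS-2B, A549 and HCC827. DKK1, a secreted Wnt inhibitor, was listed at 18.5 FPKM, 129 FPKM and the floor, and CLU, the chaperone clusterin, at 18.4, 516 and 2.28 FPKM. BEAS-2B thus lay between the cancer lines, which is what an opposite sign means. In the reverse order stood TNC, the matrix protein tenascin-C, at 29.95 FPKM, the floor and 156 FPKM, and MUC1, a membrane mucin, at 16.9, 2.93 and 102 FPKM. F3, the tissue factor of coagulation, was listed at 51.2, 1.99 and 164 FPKM, and CFB, complement factor B, at 57.0, 9.91 and 184 FPKM. APOL1, SERPINA1, AIM1, ACSL4, FBXO32 and USP25 were the remaining genes with the reverse order named by the rule, and all 6 had less than 10 FPKM in BEAS-2B.

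**Figure D4:**
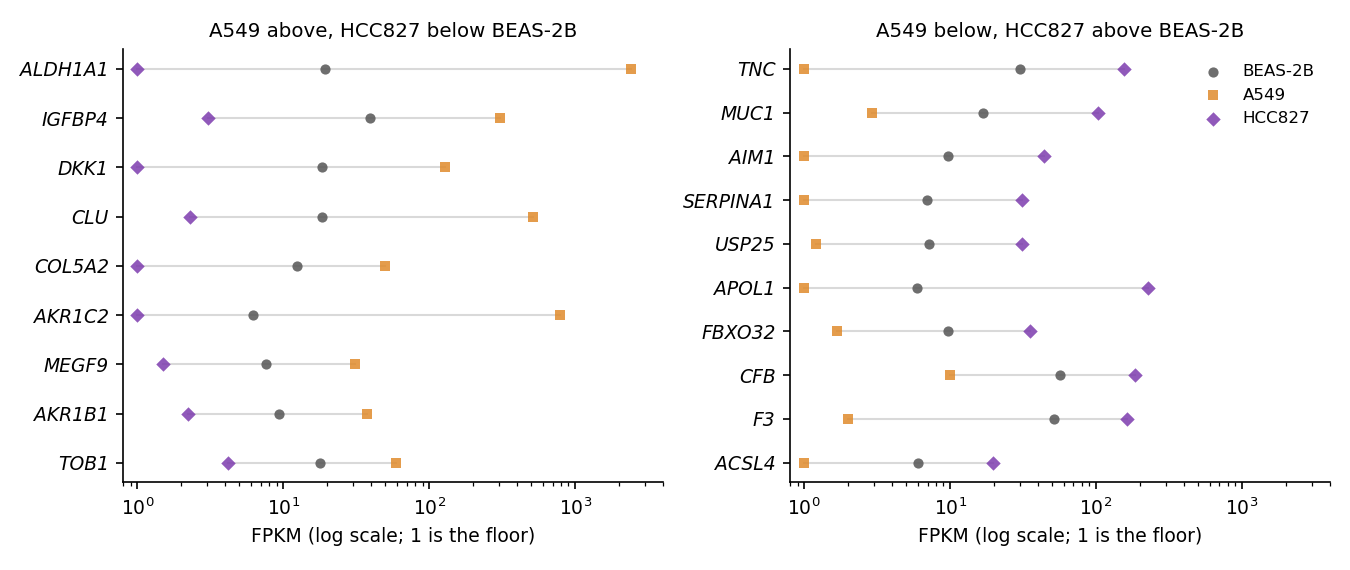
FPKM on a log scale of the genes with the largest opposite differences, with 1 symbol per line for the single library of BEAS-2B, A549 and HCC827. BEAS-2B lies between the cancer lines for every gene, with A549 the highest in the left panel (ALDH1A1 at 2397 FPKM) and HCC827 in the right panel (APOL1 at 225 FPKM).

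Circular RNAs (circRNAs) are closed loops spliced from exons of a host gene, and their TPM (transcripts scaled to a fixed total) come from a separate deposited table of the same 3 libraries, so they are a second readout of the same cultures and not a replicate. Among 1988 circRNAs above 5 TPM in each line, 81 had a host gene higher at 2-fold in both cancer lines and 101 a host gene lower in both. After scaling to a median ratio of 1, the circRNAs of higher hosts had median log2 ratios to BEAS-2B of 1.28 (A549) and 0.83 (HCC827), and those of lower hosts -0.91 and -0.87. Of the 81, 28 were themselves higher at 2-fold in both lines and 2 lower, and of the 101, 21 were lower and 2 higher. Over all 1988 the counts were 102 higher (5.13%) and 69 lower (3.47%). As deposited, without scaling, 38 circRNAs of higher hosts were higher and 0 lower, 4 of lower hosts were lower and 3 higher, and over all 131 were higher and 19 lower. The unscaled medians in HCC827 were 2.32 for higher hosts and 0.63 for lower hosts. The sign for lower hosts in HCC827 and the count of 21 thus rest on the scaling. How linear host RNA was kept out of the circRNA values is not given in the sources used here.

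Host and circRNA differed in the same direction for several of the genes above. A circRNA of SPINT2, hsa_circ_0050818 (chr19:38778515-38779831, plus strand, hg19, positions as the table gives them), was listed at 95.9 TPM in BEAS-2B and at 1119 and 1716 TPM in A549 and HCC827. One of LAMA5, hsa_circ_0061105, was listed at 6.41, 92.4 and 347 TPM, and one of ABCC3, hsa_circ_0044600, at 5.52, 89.0 and 136 TPM. Both circRNAs detected from CCND1 were also higher. On the lower side stood hsa_circ_0005609 of CLIC4, a chloride channel family protein, at 669, 95.1 and 527 TPM, lower in HCC827 by 1.84 on the scaled log2 scale.

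Other hosts and circRNAs parted. Of 22 circRNAs from 17 hosts higher at 4-fold, 11 circRNAs from 9 hosts were higher at 2-fold in both lines and 5 lay within 2-fold of BEAS-2B in both. Of 12 circRNAs from 8 hosts lower at 4-fold, 2 were lower in both. COTL1, an actin-binding protein, stood at the floor in BEAS-2B and at 10.8 and 19.7 FPKM in A549 and HCC827. One of its circRNAs, hsa_circ_0040693, was listed at 38.3, 8.76 and 37.8 TPM. The other one detected, hsa_circ_0040695, was listed at 64.2, 48.9 and 159 TPM, within 2-fold of BEAS-2B in both lines after scaling. PSMA7, a proteasome subunit, stood at the floor in BEAS-2B and at 24.3 and 7.10 FPKM in A549 and HCC827, while hsa_circ_0061033 of the same gene was listed at 84.5, 71.8 and 68.6 TPM. MRPL37, a mitochondrial ribosomal protein, was listed at 17.3 FPKM in BEAS-2B and at the floor in both cancer lines, where hsa_circ_0012640 was listed at 39.0 and 40.5 TPM. For PSMA7 and MRPL37 a line at the mRNA floor thus had RNA of the same gene in the circRNA table. COL1A1 was lower in both lines as mRNA, whereas hsa_circ_0044569 was listed at 182, 10.95 and 2112 TPM.

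**Figure D5:**
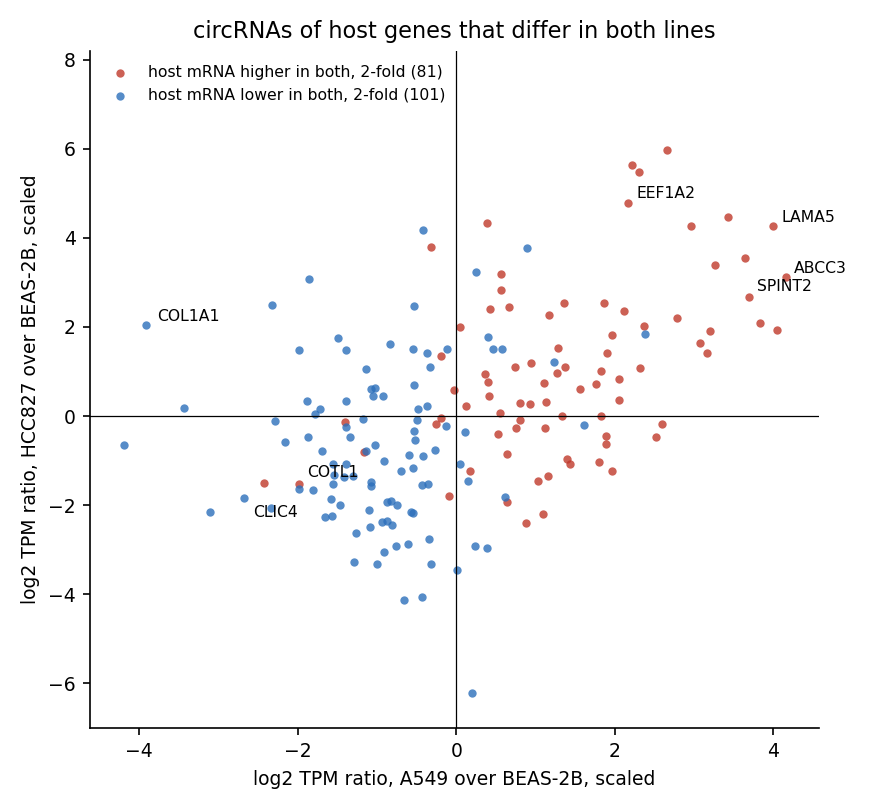
Log2 ratio of TPM to BEAS-2B, scaled to a median ratio of 1, in A549 (x axis) and HCC827 (y axis) of the 81 circRNAs whose host mRNA was higher (red) and the 101 whose host mRNA was lower (blue) in both cancer lines, 1 point per circRNA. Red points lie mostly to the right and upward and blue points mostly to the left and downward, with medians of 1.28 and 0.83 for red and -0.91 and -0.87 for blue, and exceptions such as COTL1 and COL1A1 are labelled.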

How the data were processed

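The mRNA levels of 3 cell lines, 1 library each, were deposited by the authors as FPKM, for which the paper's methods name PEAT, STAR, Cufflinks and GENCODE with the mouse build mm10 for these human lines, and the labels name kallisto, sleuth, FastQC 0.11.7 and the build hg19, with no step assigned to any. The circRNA levels were deposited by the authors as TPM, with no program named for them. RNA extraction is given as Trizol in the labels and RNeasy in the paper. FPKM and TPM give no read counts here, and values under the floor are not resolved, so depth is unknown and no interval is given.

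Of 20635 names, 117 repeated ones and 28 that had become numbers, some of them both, were left out. Differences were taken on log2(FPKM + 1) with Python 3.11.15, pandas 2.3.3 and numpy 2.4.6. A gene was compared when above the floor of 1 FPKM in at least 1 line, called at 4-fold, and counted in lists at 2-fold. Scaling divides each line by its median ratio to the geometric mean over genes above the floor in all 3 lines. Of 812 genes in 49 lists, 810 were matched, 3 by an older symbol. Members, lists and limits were chosen with earlier results of these data known. Named genes are the 15 highest and 15 lowest shared differences, over all genes compared and over those above the floor in all lines, the 10 largest opposite differences in each direction and list members, while any other gene was picked with its values known. A Y-linked gene was left out, and some genes that the rule names are not reported here. Gene names and order came from RefSeq on GRCh38.p14, in which 18073 of the names were found. Alternatives were other pseudocounts, filters, scaling and the mean of both differences. The counting of shared genes was tested on simulated data. Target predictions for 9 miRNAs, 2 network files and the authors' fold changes between HCC827 and BEAS-2B were not used.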

Additional observations from a re-analysis of the deposited data

Results flagged for a closer look

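Both cancer lines moved in opposite directions against the shared BEAS-2B library, by 2-fold or more in each, for 120 genes, and by 4-fold or more in each for 7 of them. With 1 library per line these differences between the lines were not tested. The smaller of the 2 differences, on the log2(FPKM + 1) scale, was 3.33 for ALDH1A1, 2.94 for IGFBP4, 2.73 for DKK1 and 2.56 for CLU, which were higher in A549 and lower in HCC827. It was 2.35 for TNC, 2.19 for MUC1 and 2.06 for AIM1, which were lower in A549 and higher in HCC827.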

How the results depend on the processing

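At 4-fold, 114 genes were higher, 164 lower and, at 2-fold, 120 of opposite sign. With a pseudocount of 0.1 FPKM the counts were 205, 284 and 209, and with 5 FPKM they were 29, 55 and 30. Genes above the floor in all 3 lines gave 44, 39 and 71. The mean of both differences gave 269 higher and 296 lower genes, and the limit of 4-fold in each line left 7 of opposite sign. Fewer genes enter when all 3 lines must exceed the floor, and a larger pseudocount shrinks differences of low genes. Without a filter and with at least 5 FPKM in 1 line the counts were 114, 164 and 120 again, and scaling gave 136, 126 and 118. Of called genes at 2-fold, 34.9% were higher as deposited and 50.7% after scaling. The 72 genes named by rank kept their sign and their side of the 2-fold limit in both lines (144 differences) with a pseudocount of 0.1 FPKM and with scaling. Of 84 list medians, 1 per list and line, 26 moved by 0.5 or more when all 3 lines had to exceed the floor, and 10 had the other sign, among them plasma proteins at -1.16 and -0.87. Of 96, 6 moved with a pseudocount of 0.1 FPKM and 1 with scaling, where 4 medians near 0 changed sign. With TPM as deposited, the median log2 ratio of circRNAs in HCC827 was 2.32 for higher hosts and 0.63 for lower hosts, the latter of reversed sign. No paired analysis was possible because each line has 1 library. With 1 library per line, no difference here has a replicate check.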
